A study of Homo sapiens with 16 samples.

Results

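The genes described here are 8 G protein-coupled receptors that place B cells in lymphoid tissue or let them leave it, CXCR4, CXCR5, CCR7, CCR6, S1PR1, S1PR4, P2RY8 and GPR183, together with RGS1, a regulator of signalling by such receptors. They are given by name, and no measured value enters the rule. The members were, however, chosen with earlier results of these data known, so counts of them beside shares of all genes are descriptive. All probe sets that the platform annotation assigns to exactly 1 of these symbols were taken, which gave 14 probe sets for the 9 genes, among 54675 probe sets and 19775 genes in all. CXCR4 and RGS1 had 3 probe sets each and CXCR5 had 2. The probe set of highest mean intensity over the arrays stood for each gene.

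The study measured RNA in 8 human cell lines labelled mantle cell lymphoma, a B-cell lymphoma. After 20 hours with AFN700 at 5 uM, an inhibitor of the kinase IKKbeta that activates NF-kB, or with its solvent DMSO at 0.025%, every line gave 1 Affymetrix array for each of these treatments, 16 arrays in all. For ibrutinib and "stn", the label is sensitive for REC-1 and SP49 and insensitive for JVM-2, JVM-13, GRANTA-519, HBL-2, Maver-1 and Z-138, ibrutinib being an inhibitor of the B-cell receptor kinase BTK. The treated JVM-13 array is titled AFN700 but its treatment field reads AFN701, and GRANTA-519 was grown in DMEM while the other lines were grown in RPMI, each with 10% FBS. The groups were therefore AFN700-treated and DMSO-treated cells of 2 sensitive lines, and AFN700-treated and DMSO-treated cells of 6 insensitive lines, with no genetic change made to any of them. A line is the replicate throughout, and the value of a single array has no error of its own.

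Homing receptors read gradients of chemokines or lipids and signal mostly through Gi proteins, which turn on the movement of the cell. B cells use CXCR5 and CCR7 to settle in follicles or at the border of the T-cell zone, GPR183 to reach the outer follicle, and S1PR1 to leave the tissue for blood or lymph. RGS1 speeds up the hydrolysis of GTP on Gi proteins, which shortens signals from chemokine receptors, while P2RY8 couples to the GNA13 protein and holds germinal centre B cells in place.

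The bases before the transcription start are shown for the 4 genes with the smallest unadjusted p-values among the 9 in the AFN700 response of the sensitive lines, because the inhibitor acts on a pathway that ends in DNA-binding factors. Each run is the 250 bases before a RefSeq start in GRCh38.p14, read 5′ to 3′ on the gene's strand. Capitals mark a loose NF-kB motif (GGG, then any 5 bases, then CC) or TATAAA, on either strand, with overlapping matches joined.
CXCR4: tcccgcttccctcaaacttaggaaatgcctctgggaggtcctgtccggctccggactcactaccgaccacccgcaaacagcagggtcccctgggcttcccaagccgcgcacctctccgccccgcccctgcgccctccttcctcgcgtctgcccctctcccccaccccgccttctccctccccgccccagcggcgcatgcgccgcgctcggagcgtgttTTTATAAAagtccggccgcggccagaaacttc
S1PR4: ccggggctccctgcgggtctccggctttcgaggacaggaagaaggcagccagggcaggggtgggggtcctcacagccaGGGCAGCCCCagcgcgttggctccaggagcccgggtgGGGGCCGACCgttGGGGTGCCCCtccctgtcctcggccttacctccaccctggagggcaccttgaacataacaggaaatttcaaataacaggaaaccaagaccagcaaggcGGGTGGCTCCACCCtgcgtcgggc
P2RY8: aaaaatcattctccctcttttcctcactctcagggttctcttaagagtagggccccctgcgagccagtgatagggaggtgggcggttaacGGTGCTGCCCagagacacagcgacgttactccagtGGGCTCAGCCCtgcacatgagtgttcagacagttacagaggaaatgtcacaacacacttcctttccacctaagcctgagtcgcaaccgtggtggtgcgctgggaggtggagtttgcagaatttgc
RGS1: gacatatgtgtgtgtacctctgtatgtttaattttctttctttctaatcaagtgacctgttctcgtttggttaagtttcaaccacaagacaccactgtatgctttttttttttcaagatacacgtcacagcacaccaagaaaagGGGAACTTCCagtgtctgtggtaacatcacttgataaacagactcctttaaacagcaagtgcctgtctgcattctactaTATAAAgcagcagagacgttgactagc
The windows lie at chr2:136118150-136118399 on the minus strand (CXCR4), chr19:3178519-3178768 on the plus strand (S1PR4), chrX:1537186-1537435 on the minus strand (P2RY8) and chr1:192575523-192575772 on the plus strand (RGS1). The loose motif was present in 5 of the 8 genes that have a window in the table, and in 63.4% of 15842 windows of protein-coding genes. The RGS1 window held it once, as GGGAACTTCC, 106 to 97 bases before the start. The stricter NF-kB consensus was found in 1 of the 8 windows, that of S1PR4 (GGGGTGCCCC), against 5.67% of all windows. TATAAA occurred in 3 of 8, in CXCR4 and RGS1 close to the start and in GPR183 farther away, against 9.24% of all windows. ATGCAAAT, the octamer of B-cell promoters, occurred in 0 of 8, against 1.65% of all windows, and GAGGAA, a core of sites for ETS factors such as SPI1, in 3 of 8, against 23.5%. These matches describe letters only. CCR7 had no window in the table used here.

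The deposited values are MAS5 intensities scaled to the same trimmed mean on each array, and 12305 genes, the 9 among them, passed a filter on low values and were tested. The JVM-13 DMSO array stood apart from the others, with a median log2 level of 7.25 over the genes tested, against 7.82 to 8.02 on the other 15 arrays. Ratios of 3′ to 5′ signal of actin, a sign of RNA or labelling quality, ranged from 2.09 to 18.8 on the AFN700 arrays and from 1.90 to 10.3 on the DMSO arrays. All 5 B-cell markers measured were above the 60th percentile on all arrays. CCND1 and SOX11, 2 of the 3 mantle cell lymphoma markers listed, read 172 or more and 453 or more on both arrays of 6 lines. The third, CD5, was low, with a mean log2 level of 3.22 with AFN700 and 2.80 with DMSO over the 8 lines. Of those 6 lines, only Maver-1 had all 3 markers above the 60th percentile. JVM-13 had CCND1 at 2.3 with AFN700 and 4.8 with DMSO and SOX11 at 0.3 and 1.4, and JVM-2 had CCND1 at 79.1 and 78.7 and SOX11 at 0.6 and 0.1, so the label was not borne out by these markers in JVM-13 and only weakly by CCND1 in JVM-2. In bulk RNA of this kind, fewer cells of a type and less RNA per cell cannot be told apart.

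The first comparison asks how the 9 genes differed between sensitive and insensitive lines before inhibition, and it set 2 lines against 6. CXCR5 and S1PR1 were higher in both sensitive lines than in any insensitive line, and P2RY8 was lower in both. None of the 9 passed the threshold of an adjusted p under 0.05 in limma, and 0.00813% of all genes did, which is 1 gene of 12305. At an unadjusted p under 0.05 there were 4 of the 9, CXCR5, P2RY8, RGS1 and S1PR1, against 5.7% of all genes. Of all genes, 5.68% were higher and 3.49% were lower in both sensitive lines than in all insensitive lines with DMSO. Several sets of cell type markers ran along with this comparison, none past the adjusted threshold. All 4 T-cell markers tested were higher in the sensitive lines (median 1.56 on the log2 scale, 1 past an unadjusted p of 0.05 in limma). All 3 mantle cell lymphoma markers were higher too (median 2.44, 0 past it). Of the myeloid markers tested 1 was higher and 1 lower, and of the epithelial and fibroblast markers 1 was higher and 2 lower. All 5 B-cell markers were higher in the sensitive lines (median 1.23 on the log2 scale, 2 past an unadjusted p of 0.05) and all 4 plasma cell markers were lower (median -1.27, 2 past it, with SDC1 at -5.26 and PRDM1 at -1.60), beside a median of 0.07 over all genes. The summed plasma cell markers with DMSO were 1229 in REC-1 and 1199 in SP49, against 1266 in HBL-2 and 2860 to 4800.3 in the other insensitive lines, and the B-cell sums were 8685 and 10251, against 5140.5 to 8765. REC-1, SP49 and HBL-2 are also the lines low in RGS1, and the part of these markers in the results was not tested. Log2 differences here and below are on the scale of log2(intensity + 3.3), which understates the change of low signals, and the number after ± is the moderated standard error unless named otherwise.

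The second comparison asks how the genes moved with AFN700 and whether sensitive lines moved differently. CXCR4, P2RY8, RGS1, S1PR4, CCR7, CCR6 and GPR183 were higher with AFN700 than with DMSO in both sensitive lines, 7 of 9, although in REC-1 the difference of CCR7 fell below 0 under quantile normalization or centring of the arrays and that of GPR183 under centring. Of all genes, 34.1% were higher in both. The median difference of the 9 in the sensitive lines was 0.51 on the log2 scale, beside 0.04 for all genes tested, and in the insensitive lines it was 0.08, beside 0.07. No gene of the 12305 passed the threshold in the sensitive lines (0%), in the insensitive lines (0%), in the difference between these responses (0%) or over all 8 lines (0%). At an unadjusted p under 0.05 by limma, the sensitive lines had 3 of the 9, beside 2.85% of all genes, the insensitive lines had 0 of 9, beside 6.04%, the difference had 2 of 9, beside 1.48%, and the 8 lines together had 0 of 9, beside 8.18%. All 4 comparisons share the same arrays, and the DMSO comparison shares the DMSO arrays with them.

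**Figure D1:**
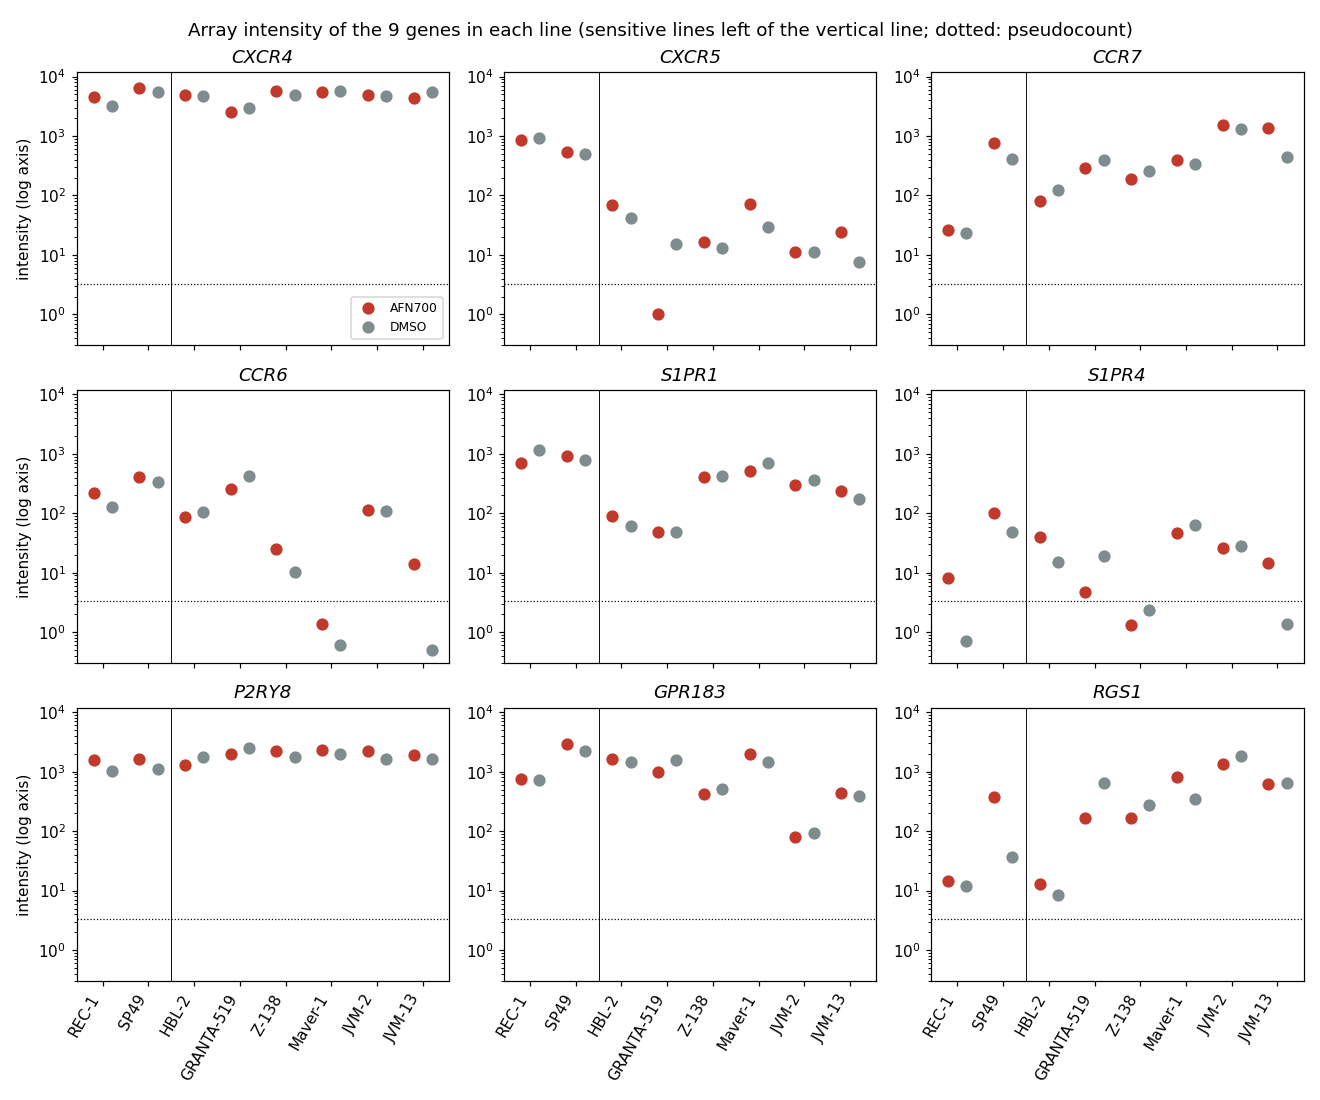
Intensity of each gene (log axis, 1 panel per gene) in the 8 lines, with AFN700 (red) left of DMSO (grey), 1 array per point, the sensitive lines left of the vertical line and the pseudocount of 3.3 as a dotted line. CXCR5 is at 493 or more in both sensitive lines and at 72.6 or less in all insensitive ones, while RGS1 in SP49 is at 375 with AFN700 and 36.4 with DMSO.

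Among the chemokine receptors, CXCR5, which answers CXCL13 and brings B cells into follicles, separated the sensitive from the insensitive lines. It read 856 in REC-1 and 533 in SP49 with AFN700, against 916 and 493 with DMSO. In the 6 insensitive lines it read from 1.0 to 72.6, with a median of 20.3, under AFN700, against 7.6 to 42.5, with a median of 14.2, under DMSO. The sensitive and insensitive ranges did not overlap under either treatment. The second probe set gave the same separation at lower signal, with at least 16.4 in the sensitive lines and at most 10.6 in the insensitive lines under AFN700, and at least 31.7 and at most 8.4 under DMSO. With DMSO the difference was 5.06 ± 0.67 on the log2 scale, a 33.3-fold difference with a 95% interval from 11.7 to 94.1, and its unadjusted p of 2.5e-05 ranked 3 of 12305 genes. Its adjusted p by limma was 0.103, above the threshold. The adjusted p ran from 0.035 to 0.441 over the alternatives, being 0.035 with a pseudocount of 16 and 0.0442 without a variance trend. CXCR5 is also made by T cells, and REC-1 stood out among the lines for T-cell markers, 4 of whose 5 were above the 60th percentile on both its arrays. Their summed intensity in REC-1 was 492 with AFN700 and 373 with DMSO, against 91.6 and 88.1 in SP49, 47.8 to 169 and 45.1 to 187 in the insensitive lines, and CD2 was near 0 in REC-1 at 1.5 and 1.1. In SP49 1 of the 5 was above the 60th percentile. The part of these markers in the CXCR5 result was not tested.

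The AFN700 difference of CXCR5 in the sensitive lines was 0.01 ± 0.65 on the log2 scale (95% interval -1.42 to 1.43), with -0.10 in REC-1 and 0.11 in SP49. Differences in insensitive lines ran in both directions at low signal. They ranged from -2.11 in GRANTA-519, where the signal was 1.0 with AFN700 and 15.2 with DMSO, to 1.32 in JVM-13, where it was 24.0 and 7.6. The insensitive lines averaged 0.23 ± 0.38 (limma, adjusted p = 0.894). The second probe set had the same sign in 3 of 8 lines.

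CXCR4, the receptor for CXCL12 that keeps B cells in bone marrow and in the dark zone of germinal centres, was above the 60th percentile on all 16 arrays. It read 4604 in REC-1 and 6493 in SP49 with AFN700, against 3221 and 5501 with DMSO. The 6 insensitive lines lay between 2539 and 5800, median 4939, with AFN700, and between 2925 and 5782, median 4814, with DMSO. GRANTA-519 was the lowest line under both treatments, and the sensitive and insensitive ranges overlapped. The level with DMSO differed by -0.15 ± 0.26 between sensitive and insensitive lines (limma, adjusted p = 0.929). Under AFN700 the sensitive lines were higher by 0.38 ± 0.13 on the log2 scale, with 0.52 in REC-1 and 0.24 in SP49 (limma, unadjusted p = 0.0143, adjusted p = 1). The insensitive lines averaged -0.04 ± 0.08, with values from -0.34 in JVM-13 to 0.25 in Z-138, and the sensitive minus insensitive difference of response was 0.41 ± 0.15 (limma, unadjusted p = 0.0184, adjusted p = 1). Quantile normalization lowered the response of the sensitive lines to 0.14 and centring of the arrays to 0.21. The other CXCR4 probe sets gave larger differences in SP49, 0.71 and 0.69, and 0.42 and 0.69 in REC-1, and followed the first probe set in sign in 7 of 8 lines.

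CCR7, which binds CCL19 and CCL21 and draws cells to the T-cell zone, differed more between lines than between treatments. REC-1 was the lowest line under both treatments, with 26.5 with AFN700 and 23.1 with DMSO, while SP49 had 758 and 418. In the insensitive lines CCR7 ran from 81.2 in HBL-2 to 1559.6 in JVM-2, median 345.5, with AFN700, against 121 in HBL-2 to 1296 in JVM-2, median 371, with DMSO. The sensitive lines lay on both sides of most insensitive lines, and the DMSO difference was -1.81 ± 1.05 (limma, adjusted p = 0.897). Without REC-1 it was 0.19. The AFN700 difference was 0.85 in SP49 and 0.17 in REC-1, and among the insensitive lines 3 were lower and 3 were higher, JVM-13 by 1.66. That line's CCR7 signal was 1388 with AFN700 and 438 with DMSO, and its DMSO array is the one that stood apart. Over the insensitive lines the difference was 0.11 ± 0.27 with JVM-13 and -0.19 without it.

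CCR6, the receptor for CCL20, ranged from the floor of the array to clear signal. REC-1 and SP49 read 216 and 401 with AFN700, against 126 and 334 with DMSO. GRANTA-519 was as high, at 260 with AFN700 and 417 with DMSO, and HBL-2 and JVM-2 were intermediate, at 86.2 and 113 with AFN700 and 106 and 110 with DMSO. Maver-1 was close to 0 under both treatments, at 1.4 with AFN700 and 0.6 with DMSO. The remaining lines were low, Z-138 at 25 with AFN700 and 10.3 with DMSO, and JVM-13 at 14.3 and 0.5. The DMSO difference was 2.71 ± 1.76 (limma, adjusted p = 0.906). With AFN700, 6 lines were higher and 2 lower, and the difference over 8 lines was 0.46 ± 0.27 (limma, unadjusted p = 0.116, adjusted p = 0.668). The largest difference, 2.21 in JVM-13, started from a DMSO signal under the pseudocount, and without JVM-13 the insensitive lines averaged 0.08 in place of 0.44.

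S1PR1, the receptor for sphingosine-1-phosphate through which lymphocytes leave lymphoid organs, was higher in the sensitive lines than in any insensitive line under both treatments. It read 696 in REC-1 and 921 in SP49 with AFN700, against 1147 and 801 with DMSO. In insensitive lines it ran from 48.3 to 510.5, median 269, with AFN700, and from 48.3 to 693, median 268, with DMSO. Maver-1 was the nearest insensitive line and GRANTA-519 the lowest under both treatments. Sensitive minus insensitive levels with DMSO differed by 2.26 ± 0.97 on the log2 scale, 4.80-fold, with a 95% interval from 1.07 to 21.6 (limma, unadjusted p = 0.0422, adjusted p = 0.861). With AFN700 the 2 sensitive lines went opposite ways, -0.72 in REC-1 and 0.20 in SP49, and the insensitive lines averaged 0.04 ± 0.19. CXCR5 and S1PR1 were the 2 genes of the 9 above all insensitive lines under AFN700, a pattern found in 4.61% of all genes, and none of the 9 was below them, beside 3.25% of all genes.

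S1PR4, another receptor for sphingosine-1-phosphate found mainly on blood cells, was near the floor on many arrays, with 7 of 16 above the 60th percentile and 4 under the pseudocount. SP49 read 102 with AFN700 and 48.8 with DMSO, and REC-1 read 8.2 and 0.7. In the insensitive lines it lay between 1.3 and 46.4, median 20.2, with AFN700, and between 1.4 and 63.6, median 17, with DMSO. Sensitive and insensitive lines overlapped under both treatments. The sensitive lines were higher with AFN700 by 1.27 ± 0.64 (limma, unadjusted p = 0.073, adjusted p = 1), and a pseudocount of 16 lowered this to 0.70. Single insensitive lines ranged from -1.46 in GRANTA-519 to 1.91 in JVM-13, and their average was 0.15 with JVM-13 and -0.21 without it.

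GPR183, also called EBI2, is a receptor for oxysterols that guides activated B cells to the outer follicle. SP49 had the highest signal of all lines, 2895 with AFN700 and 2209 with DMSO, while REC-1 had 748 and 713. In the insensitive lines JVM-2 was the lowest under both treatments, and values ran from 78.8 to 1972, median 712, with AFN700, against 93.1 to 1558, median 996, with DMSO. The ranges overlapped, and the DMSO difference was 0.98 ± 1.01 (limma, adjusted p = 0.915). AFN700 differences were between -0.67 in GRANTA-519 and 0.41 in Maver-1, and the average over 8 lines was 0.01 ± 0.13.

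P2RY8 had a narrow range and the opposite order of S1PR1 with DMSO. It read 1563 in REC-1 and 1619 in SP49 with AFN700, against 1033 and 1125 with DMSO. The insensitive lines lay between 1279 and 2334, median 2103, with AFN700, and between 1606 and 2491, median 1746, with DMSO. Both sensitive lines were below all insensitive lines with DMSO, and with AFN700 they lay above HBL-2, so the groups overlapped there. That overlap rests on the HBL-2 array alone, the next insensitive line being JVM-13 at 1881. The HBL-2 actin 3′ to 5′ ratio was 16.7 with AFN700 and 1.90 with DMSO, and its part in the overlap was not tested. The DMSO difference of -0.78 ± 0.21 corresponds to 0.584-fold (95% interval 0.421 to 0.81; limma, unadjusted p = 0.00456, adjusted p = 0.593). Under AFN700 the sensitive lines were higher by 0.60 in REC-1 and 0.52 in SP49, on average by 0.56 ± 0.22 (limma, unadjusted p = 0.0261, adjusted p = 1). In insensitive lines the average was 0.08 ± 0.13, with HBL-2 at -0.46 and JVM-2 at 0.47, and the difference between the responses was 0.48 ± 0.25 (limma, unadjusted p = 0.0819, adjusted p = 1).

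**Figure D2:**
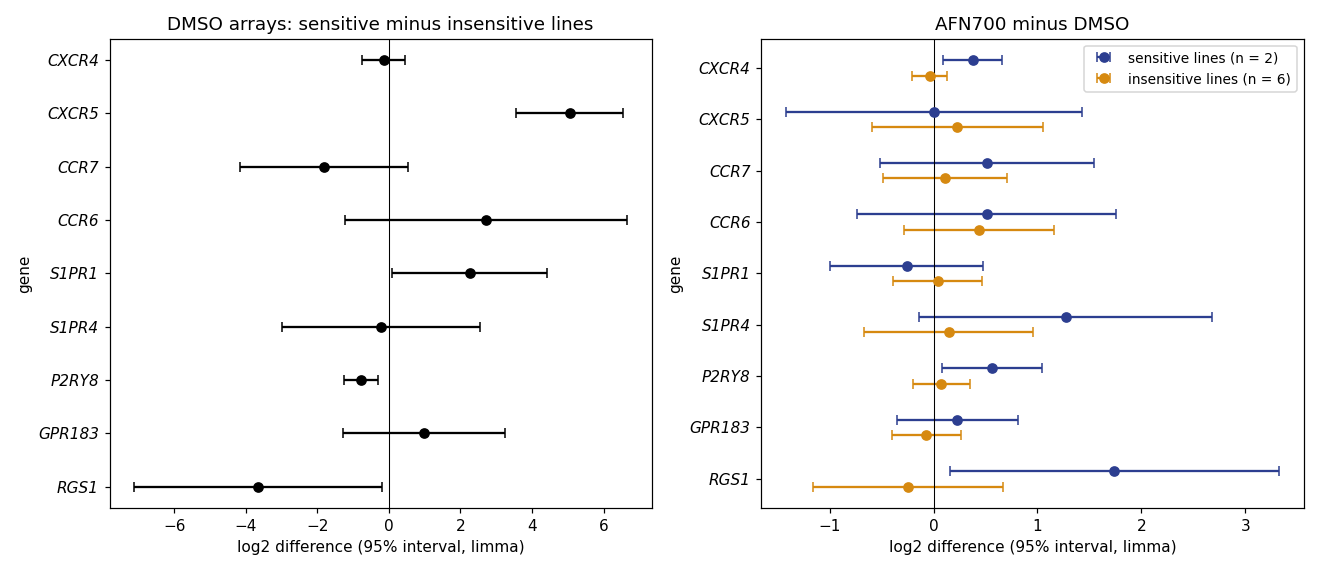
Log2 differences of the 9 genes with 95% intervals from limma, for sensitive minus insensitive lines on DMSO arrays (left) and for AFN700 minus DMSO in the sensitive (blue) and insensitive (orange) lines (right). CXCR5 lies farthest from 0 on the left at 5.06, and on the right the interval of the sensitive lines lies above 0 for CXCR4, P2RY8 and RGS1, before adjustment over all genes.

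RGS1 had the widest range of responses among the 9. It read 14.5 in REC-1 and 375 in SP49 with AFN700, against 11.9 and 36.4 with DMSO. Among the insensitive lines, HBL-2 was low, at 12.7 with AFN700 and 8.4 with DMSO, while JVM-2 was highest at 1326.5 and 1806. JVM-13 read 629 with AFN700 and 645 with DMSO, Maver-1 825 and 349, Z-138 166 and 274, and GRANTA-519 166 and 648. Thus both sensitive lines and HBL-2 were low with DMSO, and with AFN700 SP49 lay among the other insensitive lines. The difference between sensitive and insensitive lines with DMSO was -3.65 ± 1.54 on the log2 scale (limma, unadjusted p = 0.0407, adjusted p = 0.861).

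The RGS1 response to AFN700 was 3.25 on the log2 scale in SP49 and 0.23 in REC-1, with an average of 1.74 ± 0.72 in the sensitive lines (limma, unadjusted p = 0.0338, adjusted p = 1). That average rests on SP49, being 0.23 without SP49 and 3.25 without REC-1, where the lone line is assumed to vary like the others. In SP49 the actin 3′ to 5′ ratio was 6.40 with AFN700 and 2.73 with DMSO, and its part in the result was not tested. Among the insensitive lines the differences ran from -1.95 in GRANTA-519 to 1.23 in Maver-1, with HBL-2 at 0.45, JVM-13 at -0.04, JVM-2 at -0.44 and Z-138 at -0.72, and averaged -0.24 ± 0.42. The difference between sensitive and insensitive responses was 1.98 ± 0.83 (limma, unadjusted p = 0.0357, adjusted p = 1), and 0.47 without SP49. A second probe set gave 2.78 in SP49, -1.82 in GRANTA-519 and 1.39 in Maver-1, the same sign as the first in all 8 lines, with a Pearson correlation of 0.996 between the levels of both over 16 arrays. The third stayed at 4.6 or less on every array and carries no information on direction. The SD of the RGS1 response over 8 lines was 1.53, at percentile 99.7 of all genes tested, and that of its DMSO level was 2.73, at percentile 97.7.

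**Figure D3:**
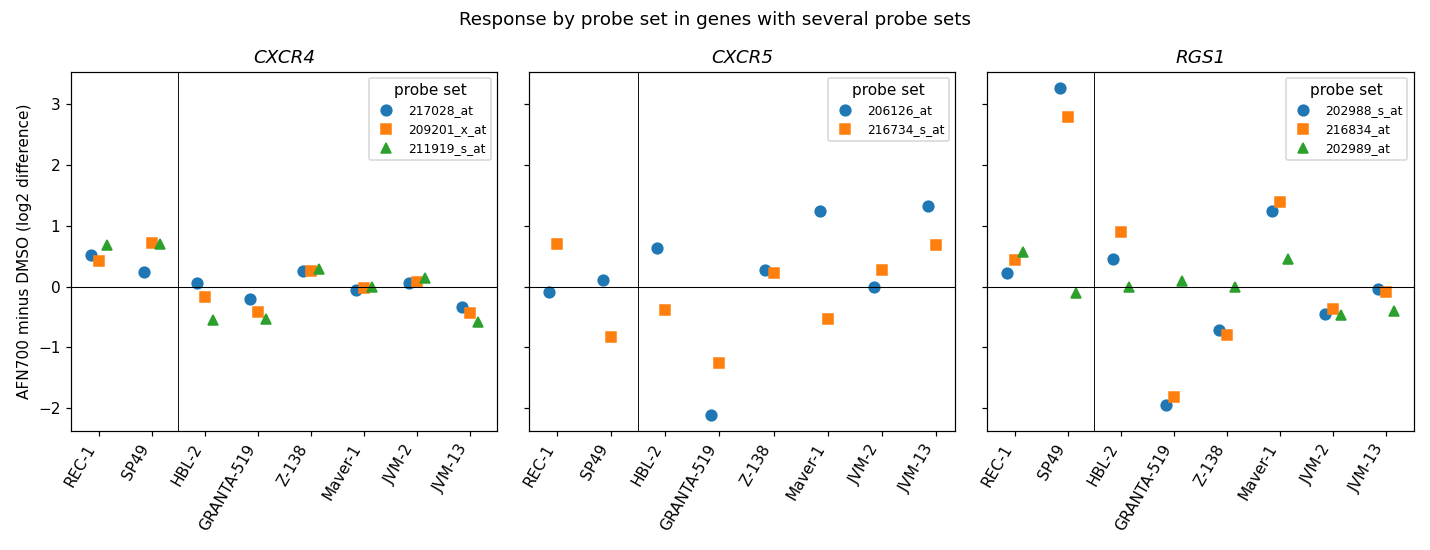
AFN700 minus DMSO (log2 difference) by line for each probe set of the 3 genes that have several, sensitive lines left of the vertical line, each marker shape being 1 probe set. Both RGS1 probe sets with signal give SP49 as the highest line (3.25 and 2.78) and GRANTA-519 as the lowest (-1.95 and -1.82), whereas those of CXCR5 differ in sign in 4 lines, the first being at 0 in JVM-2.

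The same measure places the other genes. P2RY8 lay at percentile 21.2 for the SD of the DMSO level and at 35.1 for that of the response, and the CXCR4 probe set that stands for the gene at 16.2 and 15.5. That CXCR4 probe set was at percentile 98.8 or above on every array, and the SD of its DMSO level was 0.37, beside 1.23 and 1.25 for the other CXCR4 probe sets, so its low spread does not hold for the gene's other probe sets. CCR6 and CXCR5 had DMSO levels whose spread lay at percentiles 97.8 and 96.1. S1PR1 and GPR183 lay at percentiles 87.4 and 84.2 for the spread of the DMSO level and at 42.8 and 31.2 for that of the response. CCR7 lay at 87.2 and 82.5, and S1PR4 at 86.3 and 97.7.

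Read by line, the 9 genes responded unevenly. In SP49 all 9 were higher with AFN700, CXCR5 only until arrays were centred (-0.031), and the median difference was 0.39. In GRANTA-519 none was higher, 8 were lower and S1PR1 had the same reading under both treatments (0.18 after either rescaling), with a median of -0.67. The median over all genes was 0.04 in SP49 and -0.05 in GRANTA-519. At a 2-fold limit, SP49 had 2 genes higher (RGS1 and S1PR4), beside 2.41% of all genes. GRANTA-519 had 3 lower (CXCR5, RGS1 and S1PR4), beside 6.07%, and 0 higher, beside 2.07%. JVM-13 had 4 higher (CCR6, S1PR4, CCR7 and CXCR5), but 25.7% of all genes were 2-fold higher there. Maver-1 had 2 higher (RGS1 and CXCR5), beside 1.37%. The actin 3′ to 5′ ratio of Maver-1, 18.8 with AFN700 and 10.3 with DMSO, was the highest under each treatment, and its part was not tested. REC-1 had 1 (S1PR4), beside 2.54%, HBL-2 1 (S1PR4), beside 9.87%, Z-138 1 (CCR6), beside 1.68%, and JVM-2 0, beside 0.926%. None of the 9 was 2-fold lower in the other 7 lines, where the share of all genes was 1.02% in REC-1, 1.32% in SP49, 7.01% in JVM-13, 1.07% in JVM-2, 1.68% in Maver-1, 1.06% in Z-138 and 4.46% in HBL-2. Quantile normalization took S1PR4 in SP49 (0.995) and in HBL-2 (0.96) under 2-fold, and centring took these (0.88 and 0.96), CCR6 in Z-138 (0.97) and CXCR5 in JVM-13 (0.83) under it. Centring the arrays on their medians moved the median difference of all genes tested to -0.22 in JVM-13, where it was 0.27 as deposited, and to -0.15 in REC-1, -0.13 in HBL-2, -0.10 in SP49 and 0.13 in GRANTA-519. With this centring, JVM-13 lost the sign of S1PR1, P2RY8 and GPR183, REC-1 that of CCR7 and GPR183, HBL-2 that of CXCR4 and GPR183, SP49 that of CXCR5 and JVM-2 had CXCR5 just below 0.

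**Figure D4:**
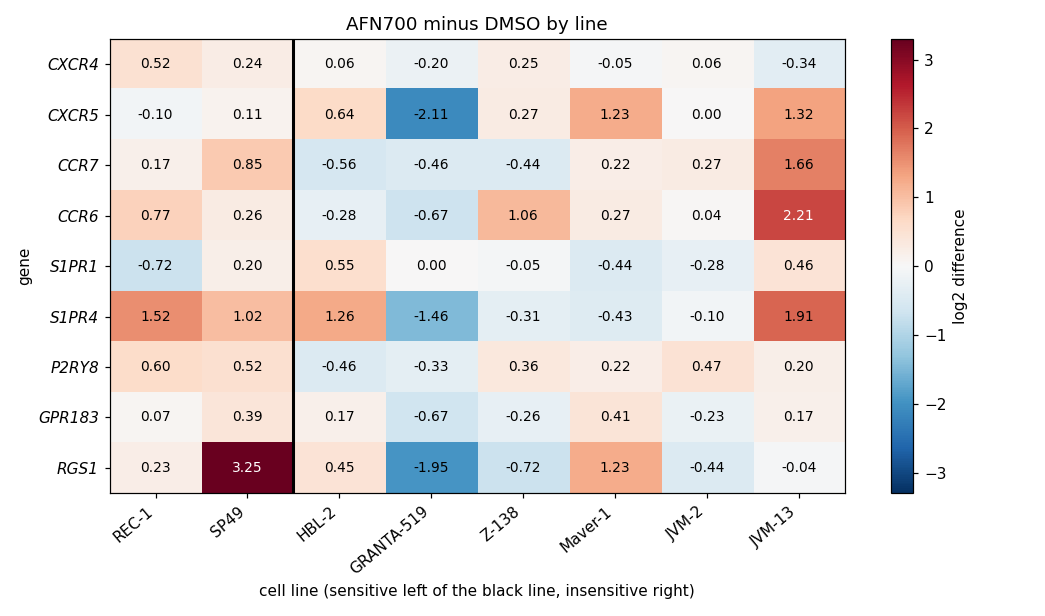
AFN700 minus DMSO (log2 difference, 1 array each) for the 9 genes (rows) in the 8 lines (columns), sensitive lines left of the black line, red for higher and blue for lower with AFN700. SP49 is above 0 in all 9 rows, with 3.25 for RGS1, and GRANTA-519 is at or below 0 in all 9, with -2.11 for CXCR5. After centring of the arrays, CXCR5 in SP49 was -0.031 and S1PR1 in GRANTA-519 was 0.18.

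Genes around the receptors were followed through lists of the pathway, none of whose members passed the threshold in any of the 5 comparisons by limma. Among 8 other RGS genes, 1 was past an unadjusted p of 0.05 in each response comparison, beside 8.18% of all genes over 8 lines, 2.85% in the sensitive lines, 6.04% in the insensitive lines and 1.48% in the difference. In the insensitive lines it was RGS10, at -0.22 ± 0.097 (limma, unadjusted p = 0.0399, adjusted p = 0.758). RGS2, which acts mainly on Gq proteins, read 842 in REC-1 and 1436 in SP49 with AFN700, against 639 and 350 with DMSO, and differed by 0.65 ± 0.21 over 8 lines (limma, unadjusted p = 0.00998, adjusted p = 0.508). RGS13, made in germinal centre B cells, read 76.4 with AFN700 and 7.7 with DMSO in SP49, where RGS1 was also higher, and 3.5 and 5.1 in REC-1. Its difference between sensitive and insensitive responses was 2.01 ± 0.78 (limma, unadjusted p = 0.0255, adjusted p = 1). With DMSO, RGS19 was higher in the sensitive lines by 2.23 ± 0.86 (limma, unadjusted p = 0.0286, adjusted p = 0.861), the opposite direction of RGS1.

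Of 13 G proteins, receptor kinases and arrestins tested, 1 was past an unadjusted p of 0.05 in the insensitive lines, beside 6.04% of all genes. That was GRK2, the kinase that desensitises these receptors, which differed by -1.02 ± 0.27 (limma, unadjusted p = 0.0026, adjusted p = 0.758), with the largest difference in HBL-2, at 13.6 with AFN700 and 95.2 with DMSO. The HBL-2 actin ratio was 16.7 with AFN700 and 1.90 with DMSO, and its part in the result was not tested. Of 5 tested genes for other sphingosine-1-phosphate receptors and enzymes, SGPP2, a phosphatase that removes sphingosine-1-phosphate, was lower in both sensitive lines, 42.8 and 166 with AFN700, against 169 and 490 with DMSO in REC-1 and SP49. Its response there was -1.72 ± 0.47 (limma, unadjusted p = 0.00341, adjusted p = 1). By line it was -1.90 in REC-1 and -1.55 in SP49, and -1.60 in HBL-2 of the insensitive lines, where the signal was 0.6 with AFN700 and 8.5 with DMSO. The 3 regulators of receptor level, KLF2 and FOXO1, which switch on S1PR1 in lymphocytes, and CD69, which removes S1PR1 from the cell surface, were lower on average over 8 lines. CD69 averaged -0.39 ± 0.12 (limma, unadjusted p = 0.00754, adjusted p = 0.496). In the sensitive lines CD69 averaged -0.08 ± 0.24, and by line it ran from -0.79 in Z-138 to -0.004 in SP49, with -0.16 in REC-1. KLF2, at -0.10 ± 0.20, and FOXO1, at -0.10 ± 0.12, lay within their standard error of 0. By line KLF2 ran from -0.70 in Maver-1 to 0.89 in JVM-13.

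Homing adhesion genes had 7 tested, of which 2 were past an unadjusted p of 0.05 in the sensitive lines, beside 2.85% of all genes. SELPLG, the ligand of P-selectin, differed by 0.84 ± 0.35 there (limma, unadjusted p = 0.035, adjusted p = 1) and CD44, the hyaluronan receptor, by -0.99 ± 0.35 (limma, unadjusted p = 0.0166, adjusted p = 1). None of the 6 other chemokine receptors tested was past an unadjusted p of 0.05 in the sensitive lines, beside 2.85% of all genes. Over 8 lines 1 was past it, beside 8.18% of all genes. That was CCR2, at 0.42 ± 0.16 (limma, unadjusted p = 0.0257, adjusted p = 0.566). As a measure of the inhibitor on its own pathway, all 6 NF-kB target genes listed were lower in the sensitive lines on average. Of these, 4 were past an unadjusted p of 0.05 in limma, beside 2.85% of all genes. They were TNFAIP3 at -2.11, ICAM1 at -1.78, NFKBIA at -1.47 and BCL2A1 at -0.72. The 6 were also lower on average in the insensitive lines, with a median of -0.28. By line, 6 of 6 were lower in HBL-2 and in GRANTA-519, and 5 of 6 in JVM-2 (median -0.54) and in Z-138 (median -0.10). In Maver-1, 5 of 6 were higher (median 0.06). In JVM-13, whose treatment field reads AFN701, 5 of 6 were also higher (median 1.13). Most of the 9 genes differed the other way in the sensitive lines, with a median of 0.51, beside -1.20 over the 6 targets. The insensitive lines did not share this pattern throughout. For GRANTA-519, 8 of the 9 genes were lower along with the targets, with medians of -0.67 and -0.91. For HBL-2 the medians were 0.17 and -1.27, beside 0.17 over all genes. The median of the 9 genes was 0.46 for JVM-13, 0.22 for Maver-1, 0 for JVM-2 and -0.05 for Z-138. A link between the 9 genes and the targets was not tested.

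The ligands of these receptors were mostly at background in the lines themselves. CXCL13, CCL19, CCL21 and the oxysterol enzymes CH25H and CYP7B1 were not above the filter on low values. CCL20, the ligand of CCR6, read 44.0 with AFN700 and 446 with DMSO in JVM-2, and 331 and 149 in JVM-13, and was at 4.6 or less in the other 6 lines. CXCL12 read 70.7 with AFN700 and 140 with DMSO in GRANTA-519, the line with the lowest CXCR4.

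Across the 16 arrays, which hold each line at both treatments, the genes whose levels followed each member most closely are given as a description. CXCR5 was followed most closely by VAV1, at a Pearson r of 0.940, and COBLL1, at 0.939, and GPR183 by BCL6, at 0.920, and MTSS1, at 0.913. RGS1 was followed by RAB8B, at 0.928, and SORL1, at 0.906, and CXCR4 by PEBP1, at 0.894, and IGSF8, at 0.860. For CCR7 the nearest were RAB9A (0.908) and RPS27L (0.906), for CCR6 ZNF792 (0.916) and MTMR14 (0.914), and for S1PR1 SRSF4 (0.903) and ATP9B (0.897). S1PR4 was nearest to TTLL1 (0.916) and TST (0.915), and P2RY8 to SNX29 (0.827) and ZNF598 (0.805). Within the 9, the pair with the largest r of either sign was picked from all pairs for each measure. The levels of CCR7 and RGS1 had an r of 0.853 over 16 arrays and 0.80 over the 8 DMSO arrays, and their responses 0.424. The levels of CXCR5 and P2RY8 had -0.809 over the 8 DMSO arrays, and the responses of GPR183 and RGS1 had 0.872 over the 8 lines.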

How the data were processed

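RNA of 8 lines was measured on Affymetrix arrays, 1 per line and treatment. The deposited intensities are linear and came from MAS5 as run by the authors (submitters' processing notes, version not given in the sources used here). Each array has a mean of 150 after 2% is trimmed from each end. No detection calls were used. Probe sets were named through the platform annotation: of 54675, 41097 have 1 gene, 1801 have several and were left out, and 11777 are not listed. Symbols were updated with the RefSeq table of GRCh38.p14.

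A pseudocount of 3.3, the 25th percentile, was added before log2. The 12305 genes tested were above the 60th percentile of at least 2 arrays. Tests used limma 3.58.1 in R 4.3.3 (lmFit, eBayes with trend), with Benjamini-Hochberg adjusted p over all genes and a threshold of 0.05. The cell line was a block, since both arrays come from the same line by the labels. Sensitive and insensitive responses and their difference came from 1 model with 6 residual degrees of freedom, the 8-line response from 1 with 7, and the DMSO comparison from the 8 DMSO arrays with 6. The SE of the sensitive response uses the spread of all lines. P-values measure the spread between lines, each standing on single arrays, and the number of arrays limits precision. The rule for named genes took the 9 members, 2 genes most like each and genes of 17 lists with 115 entries, 106 of them with a probe set. The members and lists were chosen with earlier results of these data known. The steps were tested on simulated data. Alternatives were other pseudocounts, scalings, filters, probe set rules, no trend, no line block, another threshold and leaving out lines. Figures used matplotlib 3.10.9.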

Additional observations from a re-analysis of the deposited data

Results flagged for a closer look

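Dixon's rule for a value far from the others was applied to the 6 insensitive lines in 27 groups of member values and marked 5. By chance it marks about 1 in 20 groups of normally spread values. The groups of a gene share lines and arrays, so the 27 are not independent and the 5 were not compared with chance. The CXCR4 log2 level of GRANTA-519 was 11.31 with AFN700, the nearest line being at 12.09, and 11.52 with DMSO, the nearest being at 12.21. That line was the only one grown in DMEM, and line and medium cannot be told apart. P2RY8 in HBL-2 stood at a log2 level of 10.32 with AFN700, against 10.88 in the nearest line, on an array with an actin ratio of 16.7. RGS1 in HBL-2 stood at 3.55 with DMSO, against 8.12 in the nearest line. The AFN700 minus DMSO difference of CCR7 in JVM-13 was 1.66, against 0.27 in the next line, and the JVM-13 DMSO array had the lowest median level of all arrays.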

How the results depend on the processing

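Of 886 member values recomputed under 20 alternatives, 836 kept their sign and their side of the threshold, 48 changed sign and 2 came past the threshold. Many of the 886 could not change sign. Another threshold, other filters, no trend and no line block leave every difference as it was. Leaving out a line of 1 group leaves the response of the other group as it was. The 836 is therefore not a measure of robustness. The 2 were CXCR5 with DMSO, at 4.34 with a pseudocount of 16 (limma, adjusted p = 0.035) and at 5.06 without a trend (limma, adjusted p = 0.0442), which made 1 member past the threshold in each. Of 45 member results, 24 never changed sign. The count of genes past the threshold in the DMSO comparison, 1 in the main setting, was 3 with a pseudocount of 16, 5 with no filter, 0 with the stricter filter, 0 with the median of probe sets, 2 with the probe set of largest variance, 8 without a trend, 2 at a threshold of 0.10 and 0 without JVM-13 and HBL-2 together. Leaving out 1 line gave 0 to 46, with 46 without SP49, 3 without GRANTA-519 or JVM-2 and 0 without REC-1, HBL-2, Z-138 or JVM-13. In the 8-line response it ranged from 0 to 10, 10 being without JVM-13. Dropping JVM-13 and HBL-2 together gave 37 genes there and 5 in the sensitive response. The cause of these changes was not tested.

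Signs changed as follows. A pseudocount of 1 gave CCR6 -0.18 in the difference of responses, and one of 16 gave S1PR4 0.0098 in the DMSO comparison. Quantile normalization gave GPR183 -0.039 over 8 lines, S1PR1 -0.093 in the insensitive lines and CXCR4 0.052 with DMSO. Centring gave CXCR4 -0.061 and GPR183 -0.12 over 8 lines, CXCR5 -0.16 in the sensitive lines, and S1PR1 -0.073 and P2RY8 -0.036 in the insensitive lines. The median of probe sets gave CXCR5 -0.028 in the sensitive lines. Without JVM-13 and HBL-2 together, CXCR5 was -0.098 and GPR183 -0.048 over 8 lines, CXCR4 0.013, CXCR5 -0.15, CCR7 -0.10, S1PR1 -0.19 and S1PR4 -0.57 in the insensitive lines, and CXCR5 0.16 in the difference.

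Leaving out 1 line moved the 8-line response of S1PR1 between -0.12 and 0.062, GPR183 between -0.051 and 0.10 and RGS1 between -0.18 (without SP49) and 0.57. In the sensitive lines it moved CXCR5 between -0.097 and 0.11 and S1PR1 between -0.72 and 0.20. In the insensitive lines it moved CXCR4 between -0.095 and 0.023, CCR7 between -0.19 and 0.25, S1PR1 between -0.063 and 0.13, S1PR4 between -0.21 and 0.47, P2RY8 between -0.0018 and 0.18, GPR183 between -0.16 and 0.052 and RGS1 between -0.54 and 0.098. It moved the difference of responses of CCR6 between -0.18 and 0.43 and of S1PR1 between -0.76 and 0.16, and the DMSO difference of CXCR4 between -0.53 and 0.24, CCR7 between -3.81 and 0.19 and S1PR4 between -2.07 and 1.63. The fit with no replicate block changed no call and, the arrays being balanced, no difference, such as the 1.74 of RGS1 in the sensitive lines. S1PR4 was not tested under the stricter filter. For S1PR4, which was above the 60th percentile on 7 of 16 arrays, the response of the sensitive lines was 1.74 with a pseudocount of 1 and 0.70 with 16.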
